A study of Oryza sativa with 6 samples.

Results

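The LHCB genes of rice (Oryza sativa) encode the antenna proteins that bind chlorophylls a and b and pass light energy to photosystem II. The 8 genes described here were taken by locus ID from a table of FPKM values with 19696 rows. FPKM scales fragments to the length of the transcript and to the library's total, so levels of different genes can be set side by side. The 8 rows comprised the LHCB1 genes Os01g0720500, Os01g0600900 (CAB2R) and Os09g0346500 (CAB1R), and LHCB2 (Os03g0592500), LHCB3 (Os07g0562700), LHCB4 (Os07g0558400), LHCB5 (Os11g0242800) and LHCB6 (Os04g0457000). The table itself holds no gene names, and the names given here come with the list of IDs. A RefSeq gene table held CAB1R as a synonym of 1 gene on chromosome 9 and CAB2R as a synonym of 1 gene on chromosome 1, the chromosomes in the digits of the corresponding IDs. The ID Os01g0720500 also has the digits of chromosome 1, so this match cannot tell it from Os01g0600900 as CAB2R.

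The study compared leaf RNA of ZH11, the japonica wild type (3 libraries), with that of DGP1-OE1, which overexpresses DGP1 (3 libraries). Plants were 3 weeks old and grown on 1/2MS medium. All titles carry the tag Ck, which they do not explain, and neither the promoter of the transgene nor the number of plants in each library is given. DGP1-OE1 is 1 line, and effects of DGP1 and of this line cannot be told apart. The labels do not say that replicates were separate plants, so the spread behind each p-value is that of libraries and may be technical. The row that holds DGP1 could not be named from the sources used here, so its level was not checked.

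In plants, LHCB1, LHCB2 and LHCB3 assemble into the trimers of LHCII, the major light-harvesting complex. LHCB4, LHCB5 and LHCB6, also called the minor antenna, sit as monomers between these trimers and the photosystem II core. LHCB genes are nuclear, are strongly expressed in green leaf, and in Arabidopsis are among the genes that GOLDEN2-LIKE transcription factors activate. DGP1 is known from rice glumes as a protein that restrains GOLDEN2-LIKE activity and greening.

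Depth behind the values is unknown, since the table holds no counts and its low values share no step worth a single read. Total FPKM ran from 686327 to 752617 per library. Of all rows, 18270 had an FPKM of at least 1 in at least 3 libraries and were tested with limma on the log2(FPKM + 1) scale, and all 8 LHCB genes were among them. None of the 8 was listed at 0 in any library. DGP1-OE1 replicate 2 stood apart for this family, with the lowest value of the 6 libraries for all 8 genes. If omitting it moved the difference of an LHCB gene, of the sum over all 8, or of a share or ratio by more than 1.5 times, the value without it is given. Sums over fewer genes were not recomputed without it.

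Transcripts of the photosystem II antenna were less abundant in DGP1-OE1 than in ZH11 for all 8 genes by group mean, and for 7 of the 8 no DGP1-OE1 library reached the lowest ZH11 library. The exception was LHCB5. The size of the difference varied widely within the family, from a mean 1.72 times as high in ZH11 for LHCB5 to 126 times for the LHCB1 gene Os01g0720500. One gene, Os01g0720500, passed the adjusted threshold of 0.05 (limma, Benjamini-Hochberg over all tested genes), and no gene was called higher. In these bulk leaf samples fewer cells with chloroplasts and less LHCB RNA per cell cannot be told apart.

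Against this count stands a background of 36 genes called lower among all 18270 tested, or 0.197%. At an unadjusted p under 0.05, 7 of the 8 LHCB genes were lower, where 4.26% of all tested genes were. Groups without overlap and lower in DGP1-OE1 were found for 7.19% of all tested genes. The 7 such LHCB genes depended in part on the scaling. After median-of-ratios scaling CAB1R and LHCB2 also overlapped between the groups and 5 genes did not, against 7.45% of all tested genes under that scaling. The median log2 difference over the 8 genes was -1.51, and over all tested genes it was -0.0096. Without DGP1-OE1 replicate 2 the middle values of the 8 were -0.93 (LHCB4) and -0.80 (CAB1R). The median over all tested genes was then -0.055.

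**Figure D1:**
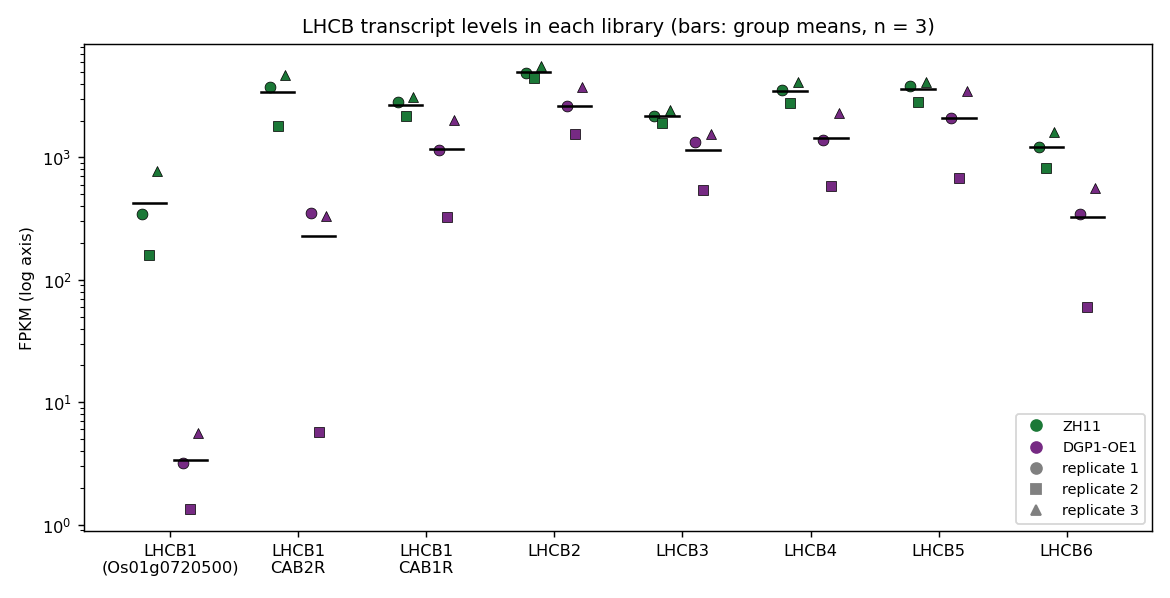
FPKM of each LHCB gene on a log axis, with ZH11 in green and DGP1-OE1 in purple. Symbols stand for the replicates and bars for the means of 3 libraries. The square of DGP1-OE1 replicate 2 is the lowest point of every gene, and the LHCB5 triangle of DGP1-OE1 replicate 3, at 3515 FPKM, lies above the ZH11 square at 2832 FPKM.

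The 3 LHCB1 genes, which encode the most abundant polypeptide of the LHCII trimers in plants, differed most from each other. For Os01g0720500 the ZH11 libraries, replicates 1, 2 and 3 in this and all later lists, gave 346, 159.6 and 771 FPKM. The same replicates of DGP1-OE1 had 3.20, 1.34 and 5.57 FPKM. In rank by FPKM among all 19696 rows it stood between places 107 and 608 in ZH11 and between places 10731 and 16938 in DGP1-OE1. The groups lay far apart, and the lowest ZH11 library was 28.7 times as high as the highest of them. It fell by 6.45 log2 units with an SE of 0.508 and a 95% interval of -7.57 to -5.33 (limma, adjusted p = 0.000138). This fall was the second largest among all tested genes, and leaving out each library in turn kept it between -7.01 and -5.88 with the call intact.

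CAB2R, the LHCB1 gene Os01g0600900, was far more abundant in the wild type. It was listed at 3733, 1817 and 4738 FPKM in ZH11 and at 352, 5.75 and 331 FPKM in DGP1-OE1. The groups lay well apart, with the lowest ZH11 library at 5.16 times the highest DGP1-OE1 library, but DGP1-OE1 replicate 2 was 61.2 times below the highest library of its own group. The difference of -5.10 log2 units had an SE of 1.18 and an interval of -7.71 to -2.50, and did not pass (limma, adjusted p = 0.149). The mean was 14.9 times as high in ZH11. Leaving out DGP1-OE1 replicate 2 made this 10.0 times, the log2 difference was -3.22, and the gene was called (limma, adjusted p = 0.000639).

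CAB1R, the LHCB1 gene Os09g0346500, had 2818, 2183 and 3097 FPKM in ZH11 and 1159.6, 323 and 2026 FPKM in DGP1-OE1. The groups nearly met, between DGP1-OE1 replicate 3 and ZH11 replicate 2. The log2 difference was -1.55 with an SE of 0.528 and an interval of -2.71 to -0.39, not past the threshold (limma, adjusted p = 0.391). Without DGP1-OE1 replicate 2 it was -0.80. In the overexpressor CAB1R was thus the main LHCB1 transcript in each library, while in ZH11 replicates 1 and 3 CAB2R was above it.

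Paralogs of LHCB1 are close in sequence, and how reads matching several of them were assigned is not given in the sources used here, so the split among the 3 genes is uncertain. Summed LHCB1 was 6897, 4159 and 8606 FPKM in ZH11 and 1515, 330.04 and 2363 FPKM in DGP1-OE1. The ZH11 mean was 4.67 times as high, with no overlap (exact permutation test on log2 sums, two-sided p = 0.1, the smallest that 3 against 3 libraries allow).

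The log2 ratio of Os01g0720500 to CAB1R was -2.93 ± 0.885 in ZH11 and -7.83 ± 0.626 in DGP1-OE1 (SD, n = 3 each; exact permutation test, p = 0.1, adjusted p = 0.2 over 4 ratios). The ratio of CAB2R to CAB1R went from 0.25 ± 0.459 to -3.30 ± 2.02 on the same scale (exact permutation p = 0.1, adjusted p = 0.2). For both ratios the groups did not overlap. The ratio of Os01g0720500 to CAB2R did overlap, at -3.18 ± 0.490 and -4.53 ± 2.62 (exact permutation p = 0.4, adjusted p = 0.4). DGP1-OE1 replicate 2 had a ratio of -1.53 there, above all ZH11 libraries, and the other two DGP1-OE1 libraries had -6.39 and -5.66. Without that library the difference between the genotypes was -2.84 in place of -1.35 (exact permutation p = 0.1). It was -0.41 without DGP1-OE1 replicate 1 and -0.78 without DGP1-OE1 replicate 3. In DGP1-OE1 replicate 2 Os01g0720500 had 1.34 and CAB2R 5.75 FPKM, so the 1 FPKM added before the ratio weighs on its value. With 0.1 FPKM added, the difference over all libraries was -1.69 (exact permutation p = 0.4).

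LHCB2, whose phosphorylation drives the movement of LHCII between photosystems in Arabidopsis, was the most abundant LHCB transcript in all 6 libraries. It had 4903, 4423 and 5560.4 FPKM in ZH11 and 2605, 1542 and 3755 FPKM in DGP1-OE1. The 3 overexpressor values all lay under the ZH11 values but spread 2.44-fold among themselves, against 1.26-fold in ZH11. Its log2 difference of -0.999 with an SE of 0.342 and an interval of -1.75 to -0.25 did not pass (limma, adjusted p = 0.391), and without DGP1-OE1 replicate 2 it was -0.66.

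LHCB3 is a part of those LHCII trimers that bind photosystem II through LHCB6. The LHCB3 gene had 2189, 1915 and 2419.6 FPKM in ZH11 and 1330.5, 539 and 1566 FPKM in DGP1-OE1. Here too all DGP1-OE1 libraries lay below all ZH11 libraries, with replicates 1 and 3 closer to the wild type than replicate 2. The log2 difference was -1.06 with an SE of 0.364 and an interval of -1.86 to -0.26 (limma, adjusted p = 0.397), and -0.58 without DGP1-OE1 replicate 2.

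**Figure D2:**
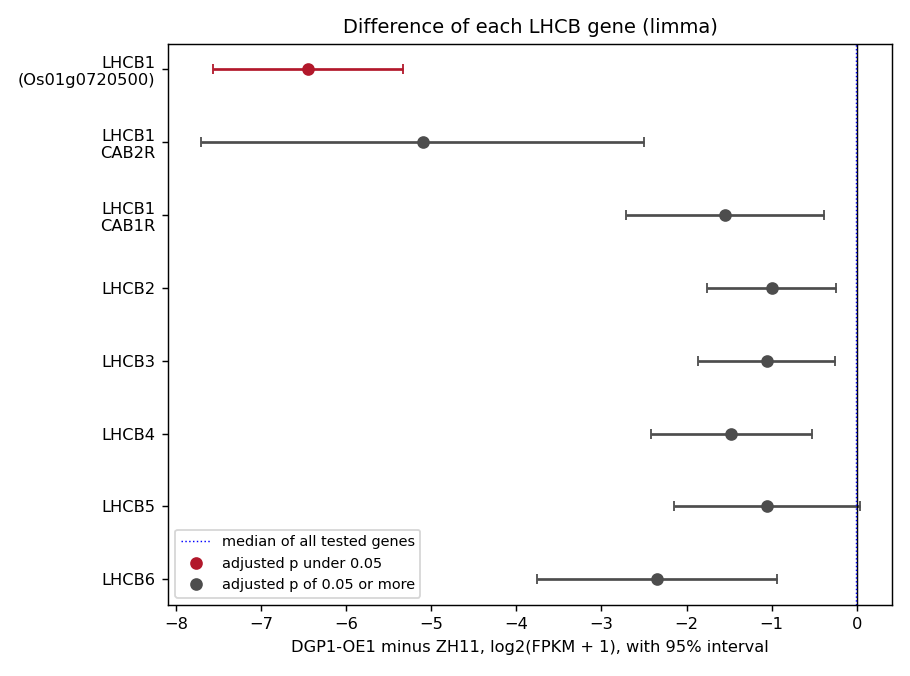
Difference between DGP1-OE1 and ZH11 on the log2(FPKM + 1) scale for each LHCB gene, with 95% intervals from limma over 3 libraries per group. Os01g0720500, in red, is the gene past the adjusted threshold, and the interval of LHCB5 reaches 0.03, across 0.

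Among the minor antenna genes, LHCB6 differed most. LHCB6, the protein known as CP24, is found in land plants and joins a trimer to the core. Its transcript stood at 1211, 814 and 1598 FPKM in ZH11 and at 346, 59.9 and 565 FPKM in DGP1-OE1. The groups did not overlap, and within DGP1-OE1 the highest library was 9.43 times the lowest. The log2 difference was -2.35 with an SE of 0.641 and an interval of -3.76 to -0.94 (limma, adjusted p = 0.253). It was -1.39 without DGP1-OE1 replicate 2.

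LHCB4, also known as CP29, had 3527, 2777 and 4099.9 FPKM in ZH11 and 1394, 579 and 2313 FPKM in DGP1-OE1, without overlap. The log2 difference was -1.47 with an SE of 0.430 and an interval of -2.42 to -0.53 (limma, adjusted p = 0.303), and -0.93 without DGP1-OE1 replicate 2. LHCB5, also known as CP26, had 3824, 2832 and 4125 FPKM in ZH11 and 2092, 674 and 3515 FPKM in DGP1-OE1. DGP1-OE1 replicate 3 lay at 97.8% of the ZH11 mean and above ZH11 replicate 2, so the groups overlapped for this gene. The difference of -1.06 log2 units had an SE of 0.495 and an interval of -2.15 to 0.03 (limma, adjusted p = 0.583), and -0.39 without DGP1-OE1 replicate 2.

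The family as a whole took up less of the transcriptome in the overexpressor. Summed over the 8 genes, the wild type libraries had 22551.5, 16919.6 and 26409.8 FPKM and the overexpressor libraries 9283, 3724 and 14076 FPKM. These sums made up 3.06% ± 0.652 of all FPKM in ZH11 and 1.21% ± 0.677 in DGP1-OE1 (SD, n = 3 each; two-sided exact permutation test, p = 0.1). Mean summed FPKM was 2.43 times as high in ZH11, and 2.06 times for the 6 genes other than Os01g0720500 and CAB2R. The DGP1-OE1 sums of these 6 genes were 8928, 3717 and 13740 FPKM, and their difference without replicate 2 was not computed. On the log2 scale the difference of the sums over all 8 genes was -1.46 (exact permutation p = 0.1), and -0.92 without DGP1-OE1 replicate 2.

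Summed LHCB1 to LHCB3, the trimer proteins, were 2.64 times as high in ZH11, and summed LHCB4 to LHCB6 were 2.15 times as high. The LHCB4 to LHCB6 sums of DGP1-OE1 were 3832, 1313 and 6393 FPKM, and their difference without replicate 2 was not computed. The balance of the LHCB1 to LHCB3 and LHCB4 to LHCB6 sums overlapped between the genotypes. Their log2 ratio was 0.72 ± 0.0273 in ZH11 and 0.55 ± 0.308 in DGP1-OE1 (SD, n = 3 each; exact permutation p = 0.4, adjusted p = 0.4 over 4 ratios). The 3 DGP1-OE1 ratios, at 0.51, 0.88 and 0.27, lay on both sides of the narrow ZH11 range of 0.71 to 0.76. The high one was DGP1-OE1 replicate 2. Without it the other two lay below all ZH11 libraries, and the difference between the genotypes was -0.34 in place of -0.17 (exact permutation p = 0.1, the smallest that 3 against 2 libraries allow). Without DGP1-OE1 replicate 3 it was -0.03.

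**Figure D3:**
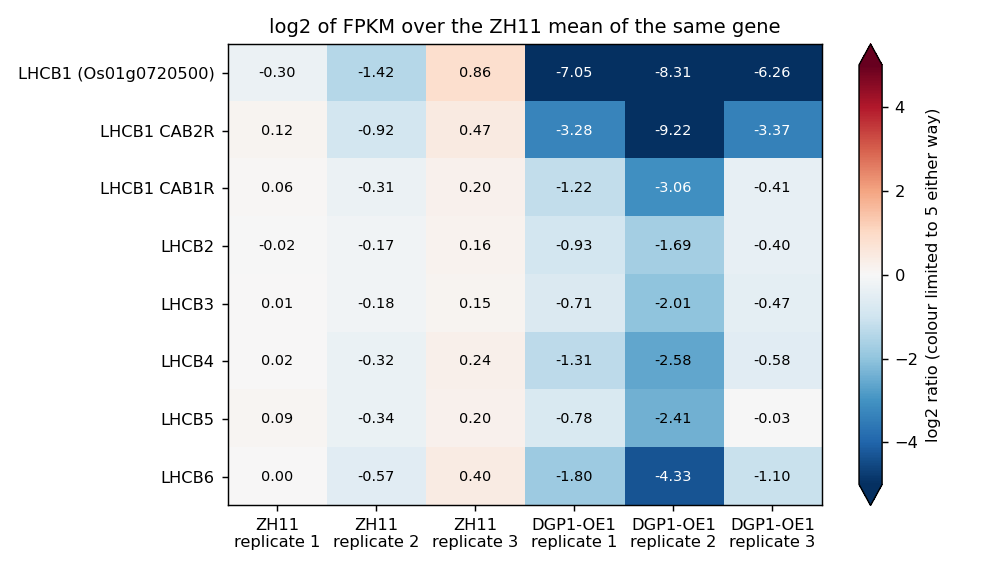
Level of each LHCB gene in each library as log2 of FPKM over the ZH11 mean of the same gene, with no pseudocount. Blue is below and red above the ZH11 mean. The strongest blue lies in Os01g0720500 in all 3 DGP1-OE1 libraries and in CAB2R and LHCB6 in DGP1-OE1 replicate 2, at -9.22 and -4.33, while LHCB5 in DGP1-OE1 replicate 3 stands at -0.03.

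In percentage points CAB2R differed most in its part of the LHCB pool. It made up 16.6%, 10.7% and 17.9% of summed LHCB FPKM in the ZH11 libraries. In the DGP1-OE1 libraries it made up 3.79%, 0.155% and 2.35%, a mean difference of -13.0 percentage points. The share of Os01g0720500 was 1.80% ± 1.01 in ZH11 and 0.0367% ± 0.00260 in DGP1-OE1. In DGP1-OE1 this share was nearly the same in all 3 libraries although their summed LHCB levels spread from 3724 to 14076 FPKM. The share of LHCB6 went from 5.41% ± 0.622 to 3.12% ± 1.31 (SD, n = 3 each).

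Other members took up a larger part of the smaller pool. LHCB2 held 21.7%, 26.1% and 21.1% of the pool in the wild type and 28.1%, 41.4% and 26.7% in the overexpressor. The mean difference was 9.07 percentage points, and 4.39 points without DGP1-OE1 replicate 2. LHCB5 accounted for 16.4% ± 0.717 and 21.9% ± 3.49 of the pool in ZH11 and DGP1-OE1. For CAB2R, Os01g0720500, LHCB6, LHCB2 and LHCB5 the shares did not overlap between the genotypes (exact permutation test, two-sided p = 0.1 each, adjusted p = 0.16 over 8 shares). LHCB3 had shares of 10.1% ± 1.12 and 13.3% ± 1.90 that overlapped (exact permutation p = 0.2, adjusted p = 0.267). LHCB4 held 15.9% ± 0.483 in ZH11 and 15.7% ± 0.714 in DGP1-OE1, and CAB1R 12.4% ± 0.598 and 11.9% ± 2.92 (exact permutation p = 0.8 each, adjusted p = 0.8). Shares add up to 100%, so a lower share of 1 gene raises the others, and these tests are not independent. Shares in a pool without CAB2R were not computed, so no separation of LHCB2 or LHCB5 apart from its fall is shown.

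**Figure D4:**
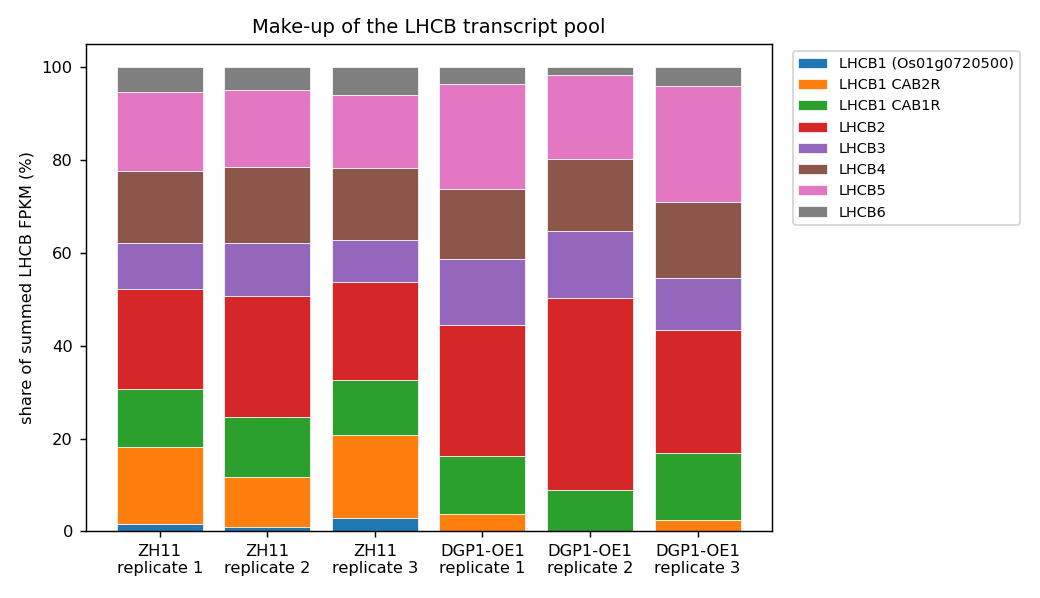
Share of each LHCB gene in the summed LHCB FPKM of each library, in percent, stacked to 100. The orange CAB2R band is 10.7% to 17.9% in ZH11 and at most 3.79% in DGP1-OE1, and the red LHCB2 band is widest in DGP1-OE1 replicate 2, at 41.4%.

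By mean FPKM the order in ZH11 ran from LHCB2 (4962 ± 571) through LHCB5 (3594 ± 677), LHCB4 (3468 ± 663), CAB2R (3429 ± 1484), CAB1R (2699 ± 468), LHCB3 (2174 ± 253) and LHCB6 (1208 ± 392) to Os01g0720500 (426 ± 314; SD, n = 3). The libraries of LHCB5, LHCB4, CAB2R, CAB1R and LHCB3 overlapped from each gene to the next, whereas LHCB2, LHCB6 and Os01g0720500 did not overlap their neighbours in this order. In DGP1-OE1 the order of means was LHCB2 (2634 ± 1107), LHCB5 (2094 ± 1421), LHCB4 (1429 ± 867), CAB1R (1169.7 ± 852), LHCB3 (1145 ± 538), LHCB6 (324 ± 253), CAB2R (229.6 ± 194) and Os01g0720500 (3.37 ± 2.12). There every gene overlapped the next except CAB2R and Os01g0720500, whose values came as close as 5.75 and 5.57 FPKM. Within single libraries CAB2R held places 3, 6 and 2 of the 8 in ZH11 and places 6, 7 and 7 in DGP1-OE1. LHCB2 was first and Os01g0720500 last in every library.

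The 8 genes also shared their order of libraries within each genotype. ZH11 replicate 2 was the lowest and ZH11 replicate 3 the highest ZH11 library for all 8. In DGP1-OE1 replicate 2 was the lowest for all 8, and replicate 3 the highest for 7, the exception being CAB2R. Replicate 2 was the lowest library of both genotypes for 9.52% of all tested genes. For 3.52% of them replicate 3 was also the highest of both. By the median over the family, ZH11 replicate 2 stood at 72.0% of the mean of ZH11 replicates 1 and 3, and DGP1-OE1 replicate 2 at 27.3% of the mean of the other two. Over all tested genes these medians were 111% and 113%. Within DGP1-OE1 CAB2R and LHCB6 had the widest ranges, 61.2-fold and 9.43-fold, and LHCB2 and LHCB3 the narrowest, 2.44-fold and 2.90-fold. Os01g0720500, with the largest difference between genotypes, had a range of 4.16-fold.

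**Figure D5:**
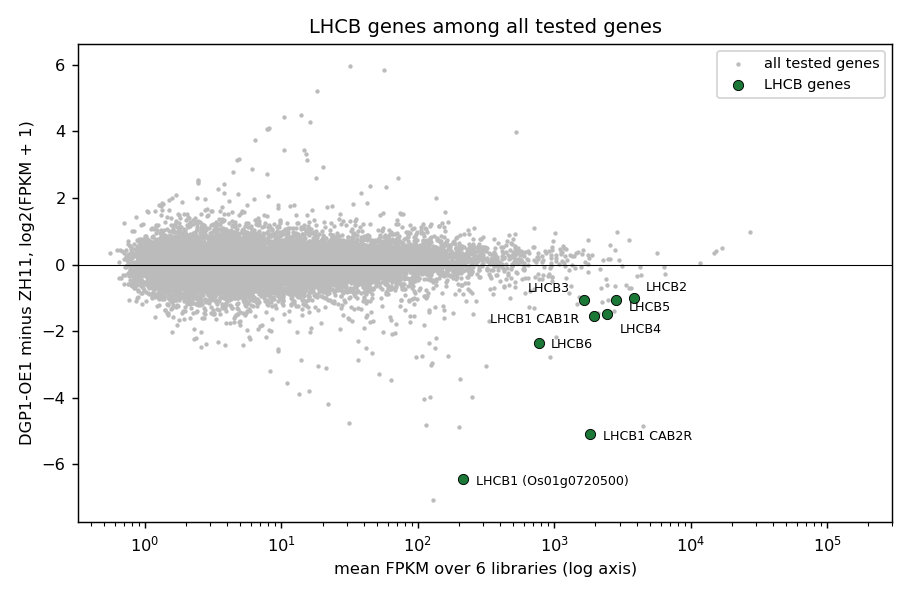
Mean FPKM over 6 libraries on a log axis against the difference between DGP1-OE1 and ZH11 on the log2(FPKM + 1) scale, for 18270 tested genes in grey and the 8 LHCB genes in green. The LHCB genes lie at the abundant end and below 0, between -0.999 and -6.45.

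Likeness of profiles was measured as the root mean square difference of log2(FPKM + 1) values over the 6 libraries, each gene centred on its own mean, among genes with a mean of at least 5 FPKM. This measure includes the difference between genotypes, so the levels of genes found by it are a description, with no test. LHCB4 was the gene nearest to the summed LHCB level, at 0.0461 log2 units and first of 11947 genes. CAB1R was at place 10, LHCB5 at 13, LHCB3 at 14, LHCB2 at 25 and LHCB6 at 263, each a part of that sum. CAB2R and Os01g0720500 were at places 11916 and 11927, among the genes farthest from it.

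The nearest genes outside the family, which the files do not name, were Os03g0333400 at 0.109 and Os03g0343900 at 0.155 log2 units from the summed LHCB level. Os03g0333400 had 386, 277 and 428 FPKM in ZH11 and 172, 54.3 and 212 FPKM in DGP1-OE1, a log2 difference of -1.50. Os03g0343900 had a log2 difference of -1.32. Nearest to Os01g0720500 were Os12g0236100 at 0.892 and Os07g0142100 at 0.916 log2 units. Os12g0236100 had 459, 217 and 492 FPKM in the wild type and 16.1, 4.33 and 19.8 FPKM in the overexpressor, and the log2 differences of these 2 genes were -4.89 and -4.85. Within the family CAB2R came closest to Os01g0720500, at place 14 of 11946 genes.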

How the data were processed

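RNA-seq of rice leaf was deposited as FPKM, calculated by the authors. Bowtie 0.12.2, HISAT2 2.0 and StringTie 1.3.0 are named without roles in the submitters' processing notes. The notes also name a mouse genome build, which cannot apply to rice IDs; the rice annotation is not given in the sources used here. Columns called DGP1-OE were taken as DGP1-OE1 with the same replicate number. No column was left out.

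Genes with at least 1 FPKM in at least 3 of 6 libraries were fitted on log2(FPKM + 1), a scale that understates changes of low genes, with limma 3.58.1 (R 4.3.3; intensity trend, two-sided, Benjamini-Hochberg adjustment over all 18270 tested genes, threshold 0.05). Sums, shares and paralog ratios (pseudocount 1) were compared by exact permutation tests. Low values were searched for steps worth 1 read: under 0.5 FPKM, at most 3.70% of genes shared 1 ratio between 2 libraries within 0.02 log2 units.

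The members and lists were chosen with earlier results of these data known. All 8 members are named, with the 2 loci nearest in profile to Os01g0720500 and to the summed level. A list of photosystem I antenna and PsbS loci was not used, because 0 of the table's IDs matched the RefSeq gene table (assembly ASM3414082v1) and its names could not be checked. Alternatives were another pseudocount, filters, scalings and moderations, a replicate block, and leaving out each library.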

Additional observations from a re-analysis of the deposited data

How the results depend on the processing

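All 8 LHCB differences stayed negative under every alternative run, and Os01g0720500 passed in each (limma, adjusted p from 3.79e-08 to 0.0155). The number of LHCB genes called lower was 1 under every other pseudocount, filter, scaling and moderation, and 1 to 2 when each library was left out in turn. The number without overlap, an alternative chosen after seeing the data, was 5 to 7 across scalings, against 7.19% to 8.18% of all tested genes. It was 7 to 8 when each library was left out in turn. Groups without overlap are easier to reach with fewer libraries, and the share over all tested genes was not computed there. With the replicate number as a block 4 LHCB genes were called lower, adding CAB2R (limma, adjusted p = 0.00183), LHCB4 (0.0287) and LHCB6 (0.00508), among 130 higher and 139 lower genes in all. The labels do not pair equal numbers, so this fit was not used. Deviations of same-numbered libraries from their group means correlated at 0.016, 0.38 and 0.14, and those of differently numbered libraries at -0.28 to 0.21. Whether equal numbers mark a pair cannot be told from these values. Over all tested genes the 36 lower calls became 14 when the intensity trend was dropped and 21 at a pseudocount of 0.1. Fits on 5 libraries gave 16 to 39 higher and 9 to 42 lower calls. The cause was not tested. Leaving out libraries moved the summed LHCB difference between -1.88 and -0.92 log2 units. The share difference of CAB1R, -0.52 points with all libraries, ran from -1.79 to 1.07, reversing without DGP1-OE1 replicate 2. That of LHCB4, -0.20 points, ran from -0.58 to 0.13, reversing without ZH11 replicate 2 (0.081) or DGP1-OE1 replicate 1 (0.127). With 3 libraries per group no permutation test could pass 0.05, and unknown depth sets no detection limit for the lowest values.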

Other observations

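The locus that follows LHCB6 in running number, outside the rule for named genes and picked after its values were seen, had a similar profile. It stood at 199, 139 and 307 FPKM in ZH11 and at 76.0, 13.5 and 76.1 FPKM in DGP1-OE1. The difference of -2.22 log2 units had an SE of 0.552. The groups did not overlap, but the difference did not pass the threshold (limma, adjusted p = 0.192). LHCB6 itself differed by -2.35. Whether the transcript models of these 2 loci overlap, and whether reads were counted by strand, is not given in the sources used here. Over the 16 tested loci next to an LHCB gene in ID order, 1 on each side, the median log2 difference was 0.10. None of the 16 was called (limma). At an unadjusted p under 0.05, 2 were lower and 1 higher, where 4.26% of all tested genes were lower. Without overlap 3 were lower, against 7.19% of all tested genes. The locus that follows LHCB6 is in both lower counts.

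Other abundant genes were not lower by the median. Of the 80 tested genes with a mean of at least 1000 FPKM, a limit chosen after seeing the data, 6 were LHCB genes. Their median log2 difference was -1.27, and 5 were lower without overlap. After median-of-ratios scaling CAB1R and LHCB2 also overlapped. Without DGP1-OE1 replicate 2 the differences of these 6 ran from -3.22 (CAB2R) to -0.39 (LHCB5), and no median was recomputed. Among the other 74 genes the median log2 difference was 0.11, with 10 lower and 16 higher without overlap. Over all tested genes 7.19% were lower without overlap, a smaller part than the 10 of these 74. The part of all tested genes that was higher without overlap was not computed.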
